A study of Homo sapiens with 15 samples.

Results

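The genes described here are 10 transcripts of the feedback that limits signalling through the kinase ERK: SPRY1, SPRY2, SPRY4 and SPRED3 of the Sprouty and SPRED family, the phosphatases DUSP4, DUSP5, DUSP6 and DUSP7, and the early response genes PHLDA1 and IER3. They were taken by symbol from the count table, and 10 of 10 were found among the 60721 genes listed and passed the filter on low counts, as did 17457 genes in all. The cells are MCF-10A, a non-tumorigenic human mammary epithelial line, and RNA was measured by sequencing of poly(A) RNA in 15 libraries. The 5 genotypes have 3 libraries each, which the labels call biological replicates. They are unedited parental cells, empty-vector cells, and cells whose NF1 gene was targeted with guide RNA 1, with guide RNA 2, or with guides 1 and 2. All were untreated and grew in the same medium, with 20 ng/mL EGF, 10% horse serum, 0.5 ug/mL hydrocortisone, 100 ng/mL cholera toxin and 10 ug/mL insulin, so the ligand of the EGF receptor was present in controls and edited cells alike. The labels do not say whether a line is a clone or a pool, nor that the replicates came from separate cultures, so the p-values measure the spread between these samples.

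NF1 encodes neurofibromin, which switches RAS off. Active RAS starts a kinase chain from RAF through MEK to ERK, and active ERK switches on genes whose products hold the same chain back. Sprouty and SPRED proteins act between the receptor and RAF, DUSP phosphatases remove the activating phosphates from ERK itself, and their transcripts are widely used as readouts of ERK output.

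NF1 transcript checked the labels. It lay between 115.3 and 158.7 CPM (counts scaled to the same library total) in the 6 control libraries and between 26.0 and 51.3 CPM in the 9 edited libraries, so the groups did not overlap. Library totals ran from 46129559 to 78976917 counts, and the lowest count of any of the 10 genes in any library was 45. Guide 2 replicate 2 stood apart from the other libraries. Its correlation with the other guide 2 libraries over log2 CPM of all tested genes was 0.947, whereas all other replicate pairs had at least 0.979. Its 9 mammary epithelial markers summed to 9319 CPM, against 1290 and 1364 CPM in the other guide 2 libraries, and its 7 mesenchymal markers summed to 3905 CPM, against 14070 and 15760 CPM. KRT5 (4997 CPM) and FN1 (2818 CPM) made up most of these sums in that library. KRT8 alone of the epithelial markers was lower there, at 0.431 times the mean of the other guide 2 libraries. SNAI2 alone of the mesenchymal markers was higher there (1.23 times). Results are therefore given with and without that library. Of the epithelial markers, KRT5 was at 625 CPM or more in all libraries. CDH1 was under 1 CPM in 5 of them, namely the guide 1 libraries and guide 2 replicates 1 and 3. Summed leukocyte markers reached at most 6.97 CPM, with CD3E and MS4A1 at 0 in every library, and summed endothelial and fibroblast markers at most 2.08 and 20.2 CPM. In bulk RNA of this kind, fewer cells of a type and less RNA per cell cannot be told apart.

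Promoters of 4 members that follow different patterns across the genotypes are shown first: SPRY2, lowest with the empty vector, SPRY4, lowest in parental cells, and DUSP6 and DUSP7, whose means were highest with the empty vector. RefSeq promoter entries (GRCh38.p14) were used for 7 of the 10 genes. None was used for DUSP4, DUSP5 and IER3, the other gene called, which does not show that RefSeq lacks them. The 250 bases before the start site were searched on both strands for the ETS motif CCGGAA, the AP-1 motif TGANTCA and the CRE half-site TGACG, none of which overlaps another in the sequences shown. Capitals mark the matches, and the letters run 5′ to 3′ on the strand of the gene. SPRY2 (first entry of 3, chr13:80341127-80341376, minus strand) and SPRY4 (chr5:142324248-142324497, minus strand) are followed by DUSP6 (chr12:89352502-89352751, minus strand) and DUSP7 (chr3:52056572-52056821, minus strand).
SPRY2: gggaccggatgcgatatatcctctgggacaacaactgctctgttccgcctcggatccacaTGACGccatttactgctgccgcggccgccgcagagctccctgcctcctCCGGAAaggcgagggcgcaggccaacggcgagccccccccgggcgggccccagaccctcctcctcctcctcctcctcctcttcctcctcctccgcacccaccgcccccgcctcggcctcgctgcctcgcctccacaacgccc
SPRY4: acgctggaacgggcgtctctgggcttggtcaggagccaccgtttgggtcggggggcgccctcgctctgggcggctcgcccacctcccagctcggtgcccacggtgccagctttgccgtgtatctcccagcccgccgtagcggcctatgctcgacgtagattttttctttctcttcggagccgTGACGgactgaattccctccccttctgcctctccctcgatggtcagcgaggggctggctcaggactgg
DUSP6: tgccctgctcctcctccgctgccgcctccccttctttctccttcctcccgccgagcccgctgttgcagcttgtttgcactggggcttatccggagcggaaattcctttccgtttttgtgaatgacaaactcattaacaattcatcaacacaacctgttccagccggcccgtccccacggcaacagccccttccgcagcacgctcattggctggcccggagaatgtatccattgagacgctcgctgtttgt
DUSP7: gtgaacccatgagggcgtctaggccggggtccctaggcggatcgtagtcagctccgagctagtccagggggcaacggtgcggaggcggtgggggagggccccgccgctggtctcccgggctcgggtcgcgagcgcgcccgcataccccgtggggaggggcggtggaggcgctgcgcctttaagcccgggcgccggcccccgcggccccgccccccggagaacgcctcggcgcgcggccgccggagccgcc
The SPRY2 window held CCGGAA at 142 bases and TGACG at 190 bases before the start, and the SPRY4 window held TGACG at 68 bases. The other 2 SPRY2 entries and those of DUSP6 and DUSP7 held none of the 3 sets of letters, which says only that these letters are not in these windows. Of the members not shown, the second SPRY1 entry held CCGGAA at 67 bases, PHLDA1 the reverse strand form TTCCGG at 89 bases and the first SPRED3 entry TGACTCA, a form of the AP-1 motif, at 60 bases. Matches thus occurred in members that were called and in members that were not. Over 35116 promoter windows of the same length, CCGGAA was present in 14.5%, TGANTCA in 6.57% and TGACG in 21.2%.

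Levels per kilobase of exon give the order of the 10 genes. The mean over 15 libraries was highest for IER3 (71.5 CPM per kb), followed by DUSP4 (26.0), PHLDA1 (18.6), DUSP7 (15.6), SPRY4 (13.7), DUSP6 (8.67), DUSP5 (7.86), SPRY2 (6.61), SPRED3 (0.716) and SPRY1 (0.488). SPRY1 and SPRED3 were thus the scarce members in these cells. All later levels are in CPM, which compare 1 gene between libraries and not genes with each other.

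Across the whole set, only SPRY2 and IER3 passed edgeR's test with all 15 libraries, SPRY2 upward and IER3 downward, and both did so against the empty vector only. By edgeR's quasi-likelihood test with Benjamini-Hochberg adjustment over 17457 genes and a threshold of 0.05, 2 of the 10 genes were called in guide 1 cells against the empty vector (5.88% of all genes tested), 1 of 10 in guide 2 cells (3.94%) and 0 of 10 with both guides (0.962%). The average of the 3 edited lines, called the edited-line average from here on, gave 2 of 10 when set against the empty vector (6.43% of all genes), and parental against empty-vector cells, where nothing was edited, also gave 2 of 10 (4.37%). With so few members these shares are read as descriptions and not as a property of the set.

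Against parental cells the edgeR count was 0 of 10 for guide 1 (0.149% of all genes), 0 for guide 2 (0.0516%), 0 for both guides (0.195%) and 0 for the edited-line average (0.166%). At an unadjusted p under 0.05 these counts were 2, 4, 3 and 4, where 19.9%, 7.37%, 9.98% and 12.4% of all genes passed. DESeq2 gave 1, 2, 2 and 2 (3.76%, 0.785%, 2.1% and 2.23% of all genes), and limma's voom with sample quality weights gave 7, 4, 4 and 5 (52.9%, 32.5%, 21.3% and 42.7%). The edited-line average against the mean of both controls gave 0 of 10 (1.51% of all genes), with 6 at an unadjusted p under 0.05 (15.8% of all genes), 3 by DESeq2 (5.32%) and 9 by voom (42.0%). For both guides against the empty vector, those 3 counts were 2 (14%), 2 (4.32%) and 5 (26.7%). Between edited lines 0 of 10 genes were called for guide 1 against guide 2 (0.0401%), both guides against guide 1 (0.275%) and both guides against guide 2 (0.149%), with 5, 0 and 1 at an unadjusted p under 0.05, where 15.2%, 13% and 5.8% of all genes passed. For these 3 comparisons DESeq2 gave 0 each (1.17%, 2.19% and 0.859% of all genes) and voom 3, 5 and 3 (20.2%, 46.5% and 15.2%).

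Against parental cells the log2 fold changes of the 10 genes were positive more often than negative in each edited line, and against the empty vector they were mixed. They were positive for 7, 10 and 7 of 10 in guide 1, guide 2 and both-guide cells against parental cells (49.4%, 54.7% and 46.4% of all genes), and for 7, 5 and 6 of 10 against the empty vector (53.2%, 55.3% and 49.8%). The guide 2 counts depended on guide 2 replicate 2. Without that library SPRY1 (-0.25), DUSP7 (-0.10) and IER3 (-0.046) were negative in guide 2 against parental cells. SPRY4 (0.13) and SPRED3 (0.32) then turned positive in guide 2 cells against the empty vector. Against parental cells the edited-line average was higher for 8 of 10, with a median log2 fold change of 0.30, where the median of all tested genes was -0.0077 and 48.5% of them were positive. SPRY1, 1 of these 8, turned negative there without guide 2 replicate 2 (-0.25). Against the empty vector it was higher for 7 of 10 with a median of 0.13 (all genes 0.025, 54.3% positive). Parental cells themselves were lower than the empty vector for 8 of 10, with a median of -0.32 (all genes 0.011, 51.5% positive). These comparisons share their control libraries, so the directions are not independent of each other.

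**Figure D1:**
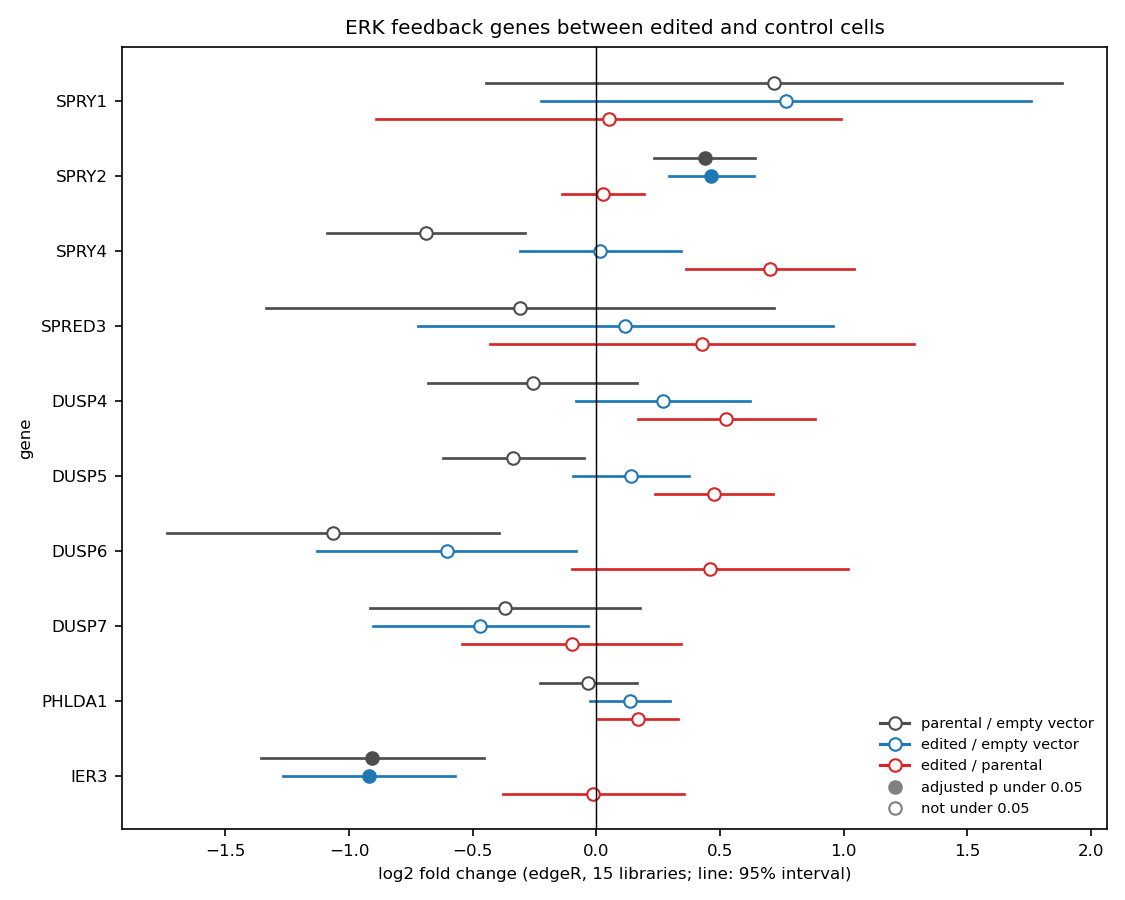
Log2 fold change of each of the 10 genes (vertical axis) in 3 comparisons, with 95% intervals as lines (edgeR, 15 libraries); filled points have an adjusted p under 0.05. SPRY2 and IER3 are filled against the empty vector for both parental and edited cells, while SPRY4, DUSP4, DUSP5 and PHLDA1 lie above 0 with their whole interval against parental cells and are open.

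Among the Sprouty genes, SPRY2 was the member called most often, and it was lowest in the empty-vector cells. SPRY2 (ENSG00000136158, chromosome 13, 80335976 to 80340951, minus strand, GRCh38) encodes an adaptor that dampens receptor tyrosine kinase signalling. Its level was 16.1, 16.1 and 13.6 CPM in the empty-vector libraries, 20.6, 22.6 and 20.1 in parental, 21.2, 19.6 and 18.6 in guide 1, 24.4, 22.6 and 23.5 in guide 2, and 19.0, 21.3 and 21.8 with both guides. All 3 empty-vector libraries lay below all 12 others, and the edited libraries overlapped the parental ones. It was 1 of 2 members, with IER3, whose 3 empty-vector libraries did not overlap the other 12 (6.7% of all genes) or the 9 edited ones (8.28% of all genes).

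SPRY2 was higher than in the empty vector by 0.61 log2 units in guide 2 cells (edgeR adjusted p 0.00524, SE 0.0947), by 0.37 in guide 1 cells (edgeR adjusted p 0.0409, SE 0.0945) and by 0.44 in parental cells (edgeR adjusted p 0.0234, SE 0.0946). With both guides the difference was 0.42 (edgeR adjusted p 0.0566, SE 0.0946), and DESeq2 called it (DESeq2 adjusted p 0.00137). The edited-line average was higher by 0.46 (edgeR adjusted p 0.00435, SE 0.0792), and against parental cells it differed by 0.03 (95% interval -0.14 to 0.19, edgeR adjusted p 0.902). The guide 1 call was lost with the replicate number as a block (edgeR adjusted p 0.0738) and in 11 of the 15 fits that each left out 1 library (edgeR adjusted p 0.0513 to 0.205, highest without empty vector replicate 3). The parental call was lost in 6 of those 15 fits, the ones without a parental or an empty-vector library (up to 0.105 without empty vector replicate 3). The 8 proliferation markers were also low in the empty-vector cells, with a sum of 1487 to 1917 CPM there and 2439 to 3005 CPM in the parental, guide 2 and both-guide libraries. Guide 1 had 1452, 1472 and 2853 CPM, and what part these genes have in the SPRY2 difference was not tested.

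SPRY4 followed another pattern: it was low in parental cells and high in empty-vector and edited cells alike. SPRY4 (ENSG00000187678, chromosome 5, 142310427 to 142326455, minus strand), a further Sprouty inhibitor of the pathway, had 59.3, 61.6 and 61.4 CPM in parental libraries. It had 104.3, 100.1 and 83.4 CPM with the empty vector, 116.5, 101.7 and 90.5 with guide 1, 111.9, 58.7 and 101.9 with guide 2, and 98.5, 96.6 and 105.2 with both guides. Guide 2 replicate 2 was the single non-parental library in or under the parental range, and the other 11 were all at 83.4 CPM or above. The share of all genes with such a gap is not given.

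For SPRY4 the edited-line average differed from parental cells by 0.70 log2 units (edgeR adjusted p 0.112, SE 0.157), with 0.78, 0.60 and 0.73 in guide 1, guide 2 and both-guide cells. Parental against empty-vector cells gave -0.69 (edgeR adjusted p 0.0540, SE 0.185) and edited against empty-vector cells 0.02 (95% interval -0.31 to 0.34, edgeR adjusted p 0.973). With all 15 libraries DESeq2 called SPRY4 higher than parental in the edited-line average (DESeq2 adjusted p 0.00248), guide 1 (0.00661) and both-guide cells (0.0176). DESeq2 did not call it in guide 2 cells (0.147), and called it lower in parental than in empty-vector cells (0.00846). Voom called SPRY4 in each of these comparisons. Without guide 2 replicate 2 SPRY4 was higher than parental in the edited-line average by 0.78 (edgeR adjusted p 0.000225, SE 0.0846) and in each line (0.78, 0.83 and 0.73, edgeR adjusted p 0.000851, 0.00127 and 0.00207). In the same fit it was lower in parental than in empty-vector cells by 0.70 log2 units (edgeR adjusted p 0.000915). The difference between the control groups was thus about as large as the one between edited and parental cells.

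SPRY1 and SPRED3 were scarce and spread widely within groups. SPRY1 (ENSG00000164056, chromosome 4, 123396795 to 123403760, plus strand), an inhibitor of the same family, had 1.19, 1.20 and 1.18 CPM with the empty vector, and 3.58, 1.16 and 1.23 in parental libraries. In edited libraries it had 1.99, 2.84 and 1.17 with guide 1, 1.63, 6.04 and 1.71 with guide 2, and 1.47, 1.41 and 1.23 with both guides. Parental replicate 1 and guide 2 replicate 2 carried the high values. SPRY1 differed by 1.37 log2 units between guide 2 and the empty vector (edgeR adjusted p 0.187, SE 0.540) and by 0.46 without guide 2 replicate 2 (edgeR adjusted p 0.563), so that value rests on 1 library. Other SPRY1 contrasts were 0.77 for edited against empty vector (edgeR adjusted p 0.383) and 0.05 for edited against parental (edgeR adjusted p 0.971).

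SPRED3 (ENSG00000188766, chromosome 19, 38388421 to 38399587, plus strand) belongs to the SPRED proteins, relatives of the Sproutys that bind neurofibromin and bring it to the membrane. Its level was 2.61, 3.68 and 3.68 CPM in parental, 4.10, 4.65 and 3.36 in empty-vector, 7.62, 6.37 and 4.59 in guide 1, 5.80, 0.816 and 4.52 in guide 2, and 3.64, 3.17 and 4.34 in both-guide libraries. The 3 guide 1 libraries lay above all parental libraries and guide 2 replicate 2 lay below every other library, without a count of how many of all genes did so. Guide 1 differed from parental cells by 0.92 (edgeR adjusted p 0.285, SE 0.475) and from the empty vector by 0.61 (edgeR adjusted p 0.491, SE 0.472). Without guide 2 replicate 2, SPRED3 in guide 1 against parental cells passed the threshold (0.92, edgeR adjusted p 0.0169, SE 0.212), and the edited-line average against parental did not (0.58, edgeR adjusted p 0.0514).

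**Figure D2:**
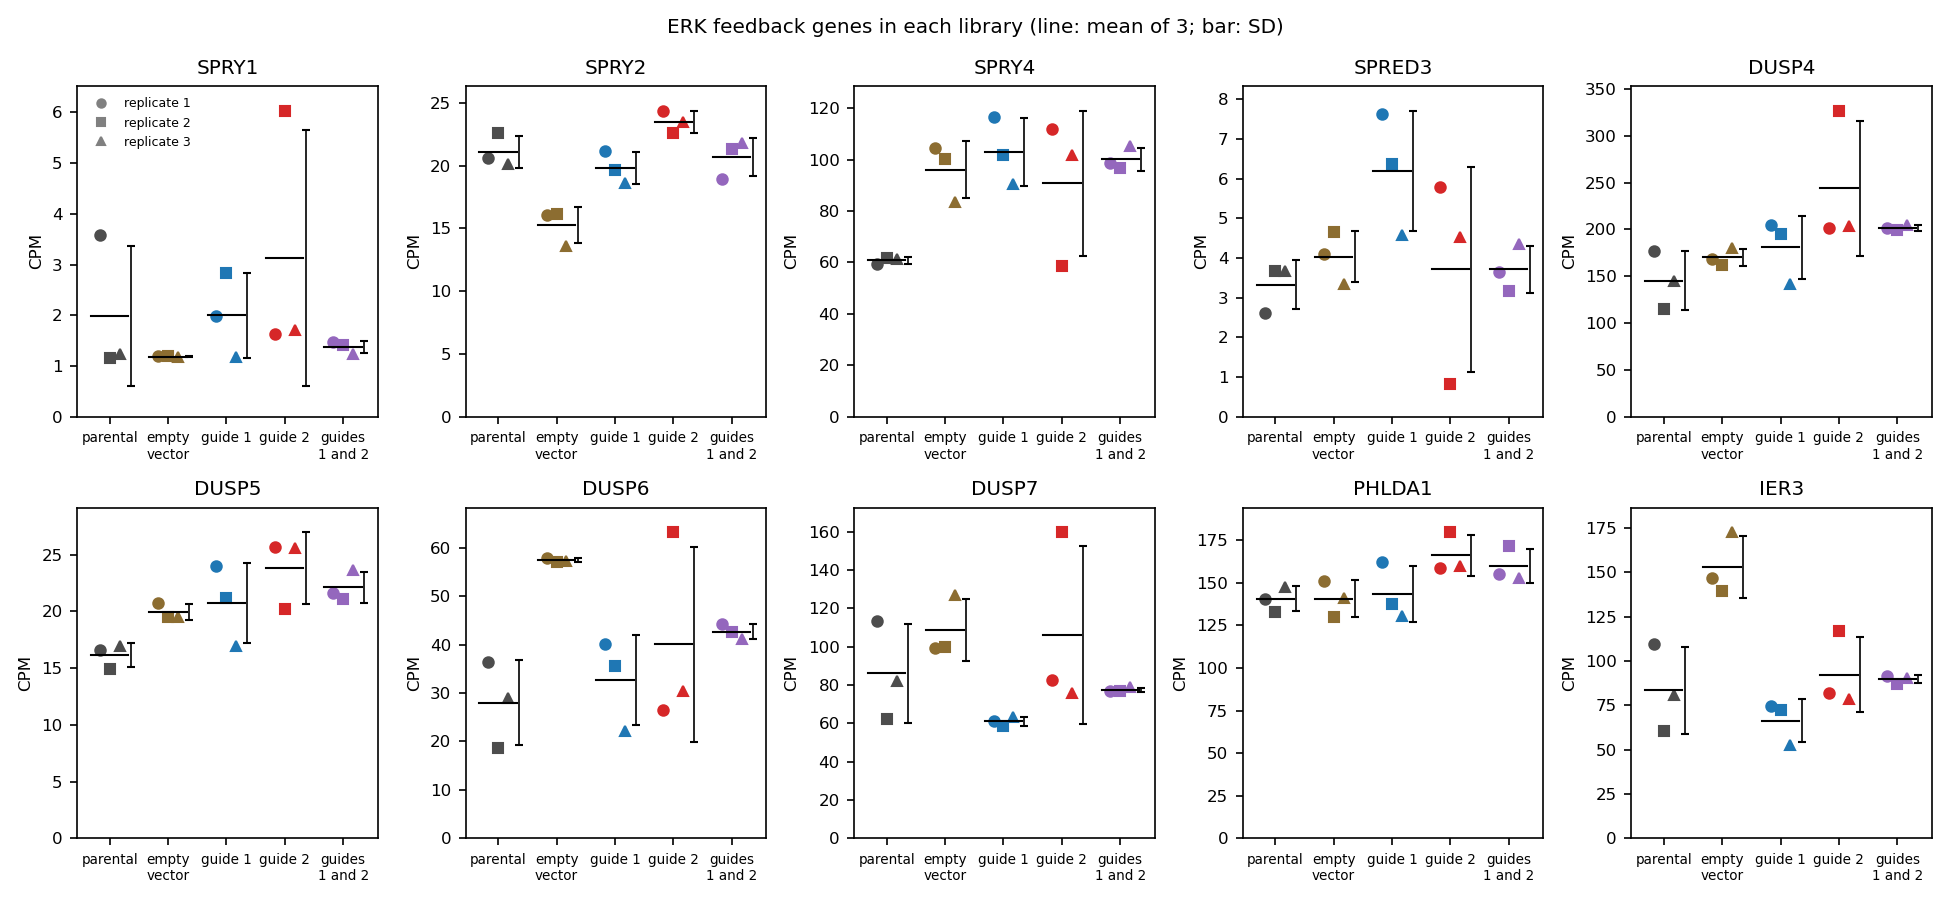
Level of each gene in CPM (vertical axis, from 0) in the 15 libraries by genotype; symbols mark the replicate number, horizontal lines the mean of 3 libraries and bars the SD. SPRY2 is lowest and IER3 highest in the empty-vector libraries, SPRY4 is lowest in the parental libraries apart from guide 2 replicate 2, and that library is the highest of 15 for 5 genes and the lowest for 2. The share of all genes that are highest or lowest there was not counted, so these positions are descriptions only.

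Of the phosphatases, DUSP5 and DUSP4 had higher means in the edited lines than in parental cells, and DUSP6 and DUSP7 had their highest means with the empty vector. None of the 4 passed edgeR's test with all 15 libraries. With the same libraries DESeq2 called DUSP5 in edited against parental cells (adjusted p 0.00520) and DUSP4 in guide 2 against parental cells (adjusted p 0.0472). Against empty-vector cells DESeq2 called DUSP7 in guide 1 cells (adjusted p 0.0183) and DUSP6 in parental cells (adjusted p 0.0124). Voom called all 4 in edited against empty-vector cells, where it called 8 of the 10 members and 36.8% of all genes. DUSP5 (ENSG00000138166, chromosome 10, 110497838 to 110511544, plus strand) is a nuclear phosphatase of ERK. It had 16.6, 14.9 and 16.9 CPM in parental, 20.8, 19.5 and 19.5 in empty-vector, 24.0, 21.2 and 17.0 in guide 1, 25.7, 20.2 and 25.6 in guide 2, and 21.6, 21.1 and 23.7 in both-guide libraries. It was the single member whose 9 edited libraries all lay above the 3 parental ones (2.46% of all genes did not overlap in that split), by a margin of 16.96 against 16.91 CPM. The empty-vector libraries lay above the parental ones too, for which no share of all genes is given.

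The DUSP5 difference between edited and parental cells was 0.48 log2 units (edgeR adjusted p 0.121, SE 0.110), with 0.38, 0.58 and 0.46 in guide 1, guide 2 and both-guide cells. Parental against empty-vector cells gave -0.34 (edgeR adjusted p 0.174) and edited against empty-vector cells 0.14 (95% interval -0.094 to 0.37, edgeR adjusted p 0.523). Without guide 2 replicate 2, DUSP5 rose in edited against parental cells by 0.51 (edgeR adjusted p 0.00651, SE 0.0957) and in each line (edgeR adjusted p 0.0387, 0.00867 and 0.0451). Without guide 1 replicate 3, the lowest edited library, the adjusted p was 0.0197.

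DUSP4 (ENSG00000120875, chromosome 8, minus strand) is likewise a nuclear phosphatase acting on ERK and related kinases. Its level was 176.8, 114.6 and 144.6 CPM in parental, 168.1, 162.1 and 179.8 in empty-vector, 204.8, 195.3 and 141.9 in guide 1, 201.0, 326.8 and 203.4 in guide 2, and 201.1, 198.9 and 205.2 in both-guide libraries. The guide 2 and both-guide libraries lay above all 6 control libraries, while guide 1 replicate 3 lay inside the parental range. The share of all genes that separate the guide 2 and both-guide libraries from the controls is not given here. Edited cells differed from parental by 0.53 (edgeR adjusted p 0.234, SE 0.165), from the empty vector by 0.27 (edgeR adjusted p 0.390, SE 0.162) and from both controls by 0.40 (edgeR adjusted p 0.147, SE 0.128). With guide 2 replicate 2 left out, DUSP4 was higher than parental by 0.44 (edgeR adjusted p 0.0373, SE 0.126) and higher than both controls by 0.30 (edgeR adjusted p 0.0498).

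DUSP6 (ENSG00000139318, chromosome 12, 89347232 to 89353271, minus strand) is a cytoplasmic phosphatase specific to ERK. Its level was 57.9, 57.0 and 57.3 CPM in empty-vector, 36.3, 18.7 and 29.01 in parental, 40.1, 35.6 and 22.2 in guide 1, 26.5, 63.2 and 30.3 in guide 2, and 44.2, 42.6 and 41.1 in both-guide libraries. The empty-vector libraries differed by less than 1 CPM among themselves and lay above 11 of the other 12, the exception being guide 2 replicate 2. No share of all genes is given for this separation. DUSP6 in edited against empty-vector cells was -0.60 (edgeR adjusted p 0.172, SE 0.242), with -0.82, -0.54 and -0.45 in guide 1, guide 2 and both-guide cells. Parental against empty-vector cells gave -1.07 (edgeR adjusted p 0.0708, SE 0.310), and edited against parental cells 0.46 (edgeR adjusted p 0.483). When guide 2 replicate 2 was left out, DUSP6 was lower than in the empty vector in the edited-line average (-0.78, edgeR adjusted p 0.00636, SE 0.173) and in parental cells (-1.08, edgeR adjusted p 0.00658, SE 0.218).

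DUSP7 (ENSG00000164086, chromosome 3, 52048919 to 52056550, minus strand), a close cytoplasmic relative of DUSP6, had 99.2, 99.6 and 127.3 CPM in empty-vector and 113.6, 62.3 and 82.2 in parental libraries. It had 61.1, 58.7 and 63.5 CPM with guide 1, 82.7, 159.9 and 75.9 with guide 2, and 76.9, 76.9 and 78.8 with both guides. The guide 1 and both-guide libraries all lay below the empty-vector ones, for which no share of all genes is given, and guide 2 replicate 2 lay above every other library. DUSP7 in edited against empty-vector cells was -0.47 (edgeR adjusted p 0.203, SE 0.201), with -0.84 in guide 1 (edgeR adjusted p 0.0704), -0.053 in guide 2 and -0.51 with both guides. In the fit without that library the DUSP7 value in guide 2 became -0.49 (edgeR adjusted p 0.100), and the edited-line average was lower than the empty vector (-0.62, edgeR adjusted p 0.00491, SE 0.132). Edited against parental cells gave -0.10 with all libraries (edgeR adjusted p 0.863) and -0.24 without guide 2 replicate 2 (edgeR adjusted p 0.246).

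Of the early response genes, IER3 was lower in edited and in parental cells than with the empty vector, and PHLDA1 was not called by edgeR in any comparison. IER3 (ENSG00000137331, chromosome 6, 30743199 to 30744554, minus strand) encodes a short-lived protein that is a substrate of ERK and prolongs ERK activity, so that among these genes it is not an inhibitor. It had 147.0, 139.3 and 172.7 CPM in empty-vector, 109.4, 60.5 and 80.6 in parental, 74.4, 72.5 and 52.4 in guide 1, 81.7, 116.9 and 78.4 in guide 2, and 91.4, 87.1 and 90.5 in both-guide libraries. All 3 empty-vector libraries lay above the 12 others, while edited and parental libraries overlapped.

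IER3 fell below its empty-vector level in guide 1 cells, at -1.22 log2 units (edgeR adjusted p 0.00756, SE 0.210), and in the edited-line average (-0.92, edgeR adjusted p 0.00500, SE 0.161). Guide 2 cells gave -0.75 (edgeR adjusted p 0.0659, SE 0.208) and both-guide cells -0.79 (edgeR adjusted p 0.0938, SE 0.208). DESeq2 called IER3 lower in both with the same libraries (DESeq2 adjusted p 0.0148 and 0.0141). Parental cells were lower too (-0.91, edgeR adjusted p 0.0300, SE 0.209), and edited against parental cells differed by -0.013 (95% interval -0.38 to 0.35, edgeR adjusted p 0.980). The call in the edited-line average was lost without empty vector replicate 3, the library with the highest IER3 (edgeR adjusted p 0.0517). The parental call was lost without parental replicate 2 or 3 or any 1 empty-vector library (edgeR adjusted p up to 0.117). IER3 overlaps 359 exonic bases of the antisense gene IER3-AS1, which had at most 0.793 CPM in any library, and whether counting used strand is not given in the sources used here.

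Taken as a sum, the mammary epithelial markers also tended to be high where IER3 and DUSP7 were high. Their sum was 3622 to 5492 CPM in the empty-vector libraries, 1140 to 2113 CPM in the edited libraries other than guide 2 replicate 2, and 5271, 1560 and 3132 CPM in parental replicates 1 to 3. KRT5, at 625 to 5000 CPM over the libraries, reached the highest level of the 9 markers and so weighs most on the sum. In guide 1 cells against the empty vector 3 of the 9 markers, CDH1, KRT17 and KRT18, were lower by the test, where 5.88% of all genes were called in either direction. Guide 2 replicate 2 had 9319 CPM. The 7 mesenchymal markers summed to 13500 to 15300 CPM with the empty vector, 15010 to 20820 with guide 1 and 11420 to 11730 with both guides. Their sum was 8485 to 13900 CPM in parental and 3905 to 15760 CPM in guide 2 libraries. What part either sum has in the IER3 and DUSP7 values was not tested.

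PHLDA1 (ENSG00000139289, chromosome 12, 76025447 to 76033932, minus strand), an early gene induced by growth factors, had the smallest spread of the 10 genes relative to its mean. It had 140.7, 133.1 and 147.8 CPM in parental, 151.2, 129.8 and 141.1 in empty-vector, 162.0, 137.8 and 130.8 in guide 1, 158.5, 179.9 and 160.1 in guide 2, and 155.5, 171.4 and 152.6 in both-guide libraries. The guide 2 and both-guide libraries all lay above the 6 control libraries, with the closest pair at 152.6 and 151.2 CPM, and the guide 1 libraries overlapped the controls. As for DUSP4, the share of all genes that separate in this way is not given. PHLDA1 in edited cells differed by 0.14 from the empty vector (95% interval -0.026 to 0.30, edgeR adjusted p 0.338) and by 0.17 from parental cells (95% interval 0.0068 to 0.33, edgeR adjusted p 0.381). Voom called PHLDA1 in edited cells against the empty vector (0.17, adjusted p 0.0317) and against both controls (0.15, adjusted p 0.0175), and DESeq2 in no comparison.

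None of the 10 genes separated the 9 edited from all 6 control libraries, where 0.281% of all genes did, NF1 among them. Leaving out guide 2 replicate 2 raised the counts of these comparisons more than leaving out any other library did. Without it, 4 of 10 genes were called in edited against empty-vector cells (18.8% of 17849 genes tested), 3 of 10 in edited against parental cells (13.1%) and 6 of 10 in edited against both controls (18.0%). The 6 were SPRY2, SPRY4, DUSP4 and DUSP5, higher, and DUSP7 and IER3, lower. Parental against empty-vector cells then gave 4 of 10 (13.9%), namely SPRY2 higher and SPRY4, DUSP6 and IER3 lower. For guide 1, guide 2 and both guides against parental cells the counts were 3 (14.5%), 2 (5.96%) and 2 (2.62%), with SPRY4 and DUSP5 in each and SPRED3 in guide 1.

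**Figure D3:**
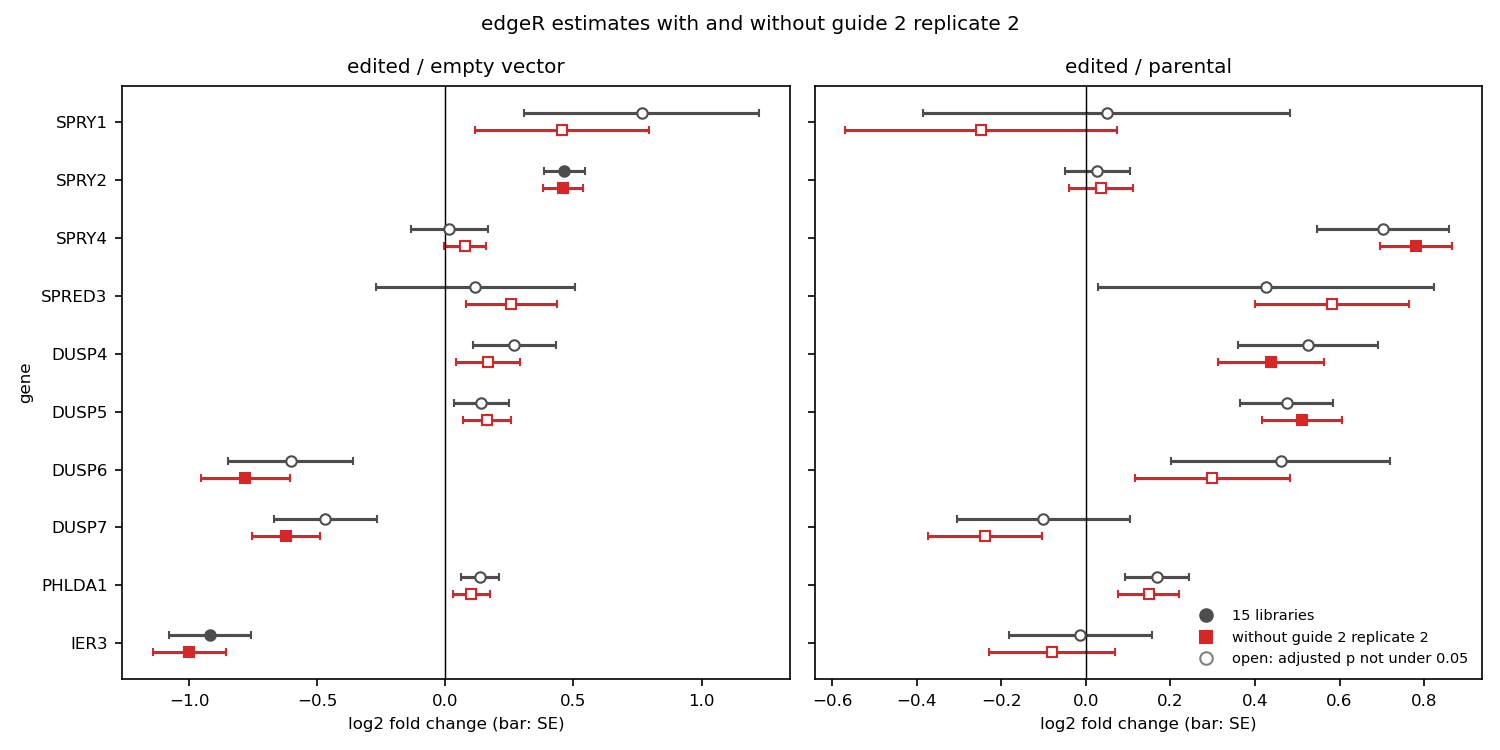
Log2 fold change of each gene (vertical axis) with SE bars in edited against empty-vector cells (left) and edited against parental cells (right), from all 15 libraries (grey circles) and without guide 2 replicate 2 (red squares); filled symbols have an adjusted p under 0.05. DUSP6 and DUSP7 become filled on the left, and SPRY4, DUSP4 and DUSP5 on the right.

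Guide 2 replicate 2 did not shift the family in 1 direction. Relative to the mean of the other guide 2 libraries it held 3.62 times the level of SPRY1, 2.22 times that of DUSP6, 2.02 times that of DUSP7, 1.62 times that of DUSP4 and 1.13 times that of PHLDA1, each the highest of 15 libraries. It held 0.158 times the level of SPRED3 and 0.549 times that of SPRY4, each the lowest of 15. SPRY2 (0.945 times), DUSP5 (0.786 times) and IER3 (1.46 times) stayed inside the range of the other libraries. Genes outside the set were extreme there too, with MYC and EGFR highest and DUSP1 and CCND1 lowest of 15. The share of all genes at either extreme was not counted. The positions of the members therefore describe that library and are not read as a property of the set.

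Pairs of the 10 genes were compared over the 15 libraries to show which varied together. Of 45 pairs 31 had a positive Pearson r of log2 CPM, and the highest was IER3 with DUSP6 (r = 0.86, permutation p = 6e-05, adjusted over the 45 pairs 0.0027; Spearman rho = 0.86, adjusted 0.00225). IER3 with DUSP7 had r = 0.81 (permutation p = 0.00022, adjusted 0.0027; rho = 0.86). Both held within genotypes (r = 0.90 and 0.82 of deviations from the genotype means), without guide 2 replicate 2 (0.87 and 0.89) and without the 2 libraries farthest from the median of the phosphatase (0.79 and 0.84). The third pair over 0.8 was DUSP4 with PHLDA1 (r = 0.80, rho = 0.81, permutation p adjusted 0.0027), with 0.63 within genotypes and 0.69 without the 2 libraries farthest from the DUSP4 median. SPRY4 went with SPRED3 (r = 0.71, rho = 0.79) and with DUSP5 (r = 0.78, rho = 0.81), with permutation p adjusted over 45 pairs of 0.0027 and 0.0063. Within genotypes r was 0.97 with SPRED3 and 0.78 with DUSP5, and without guide 2 replicate 2 it was 0.69 and 0.86. With SPRED3 it was 0.58 without the 2 libraries farthest from the SPRY4 median. Guide 2 replicate 2 was the lowest of 15 for SPRY4 and SPRED3, and the value within genotypes was not taken without it. SPRED3 and DUSP7 ran opposite (r = -0.74, permutation p adjusted 0.0102, and -0.82 within genotypes), but their rho of -0.59 had an adjusted permutation p of 0.111. Their r was -0.54 without guide 2 replicate 2 and -0.45 without the 2 libraries farthest from the SPRED3 median, so its size depends in part on those. Of the 45 pairs, 9 changed the sign of r without guide 2 replicate 2 and 9 within genotypes. The libraries fall into 5 genotypes of 3 and are not 15 independent draws.

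**Figure D4:**
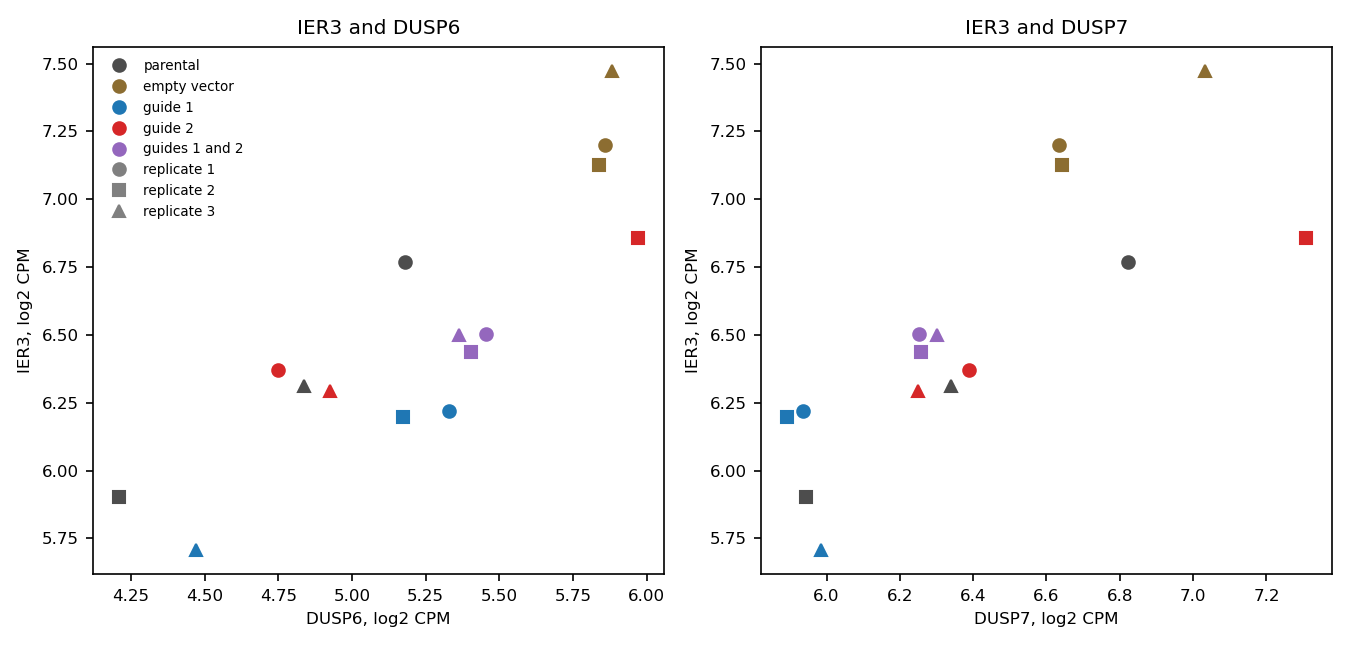
Log2 CPM of IER3 (vertical axis) against log2 CPM of DUSP6 (left, horizontal axis) and DUSP7 (right, horizontal axis) in 15 libraries; colours mark genotypes and symbols replicate numbers. The empty-vector libraries have the highest IER3 in both panels, and guide 2 replicate 2 has the highest DUSP6 and DUSP7 (r = 0.86 and 0.81).

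The genes of the whole table whose pattern over the 15 libraries was most like that of a member were found by Pearson r among 11729 candidates. SPRY2 was nearest to GLB1L2 (r = 0.92) and FDFT1 (0.91), SPRY4 to SEL1L3 (0.98) and LAMA1 (0.95), and SPRED3 to GPSM1 and ICAM5 (0.97 each). IER3 was nearest to RAP2B (0.97) and KDM1B (0.96), DUSP6 to BCL2L2 (0.94) and ANXA4 (0.93), and DUSP7 to CCDC112 (0.98) and BCL7A (0.97). DUSP4 was nearest to SIRT6 (0.90) and the early gene IER2 (0.89), DUSP5 to EIF1 and MVB12A (0.87 each), and SPRY1, among 11730 candidates, to TCFL5 and DDB1 (0.94 each). PHLDA1 had HMGA2 (0.87) and, from the set itself, DUSP4 (0.80). These are the highest of many correlations and are given as descriptions.

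Other genes of the pathway were taken from lists written down with earlier results of these data known. Of 12 further feedback genes 11 were tested, and 2 were lower and 0 higher in guide 1 cells, in parental cells and in the edited-line average against the empty vector. In these comparisons 5.88%, 4.37% and 6.43% of all genes were called in either direction. SPRED2, which like SPRED3 recruits neurofibromin, was lower by the test in guide 1 (-0.36), parental (-0.34) and edited cells (-0.30), with edgeR adjusted p of 0.0159, 0.0238 and 0.00834. It had 48.9 ± 0.674 CPM with the empty vector against 39.6 ± 2.27 CPM in the parental libraries (mean ± SD of 3). LRIG1, which promotes degradation of EGF receptor family members, was lower in guide 1 (-1.18, edgeR adjusted p 0.00957) and in edited cells (-0.72, edgeR adjusted p 0.0209), from 9.22 ± 1.19 CPM with the empty vector to 4.10 ± 0.356 CPM with guide 1 (mean ± SD of 3). IL17RD, which binds active MEK and holds ERK in the cytoplasm, was lower in parental cells (-1.06, edgeR adjusted p 0.0274).

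Of 11 transcription outputs of ERK, 1 was called, in 3 comparisons where 3.94%, 4.37% and 6.43% of all genes were called. FOSL1, an AP-1 subunit that is stabilised by ERK, rose in guide 2 (0.86, edgeR adjusted p 0.00460), parental (0.56, edgeR adjusted p 0.0307) and edited cells (0.56, edgeR adjusted p 0.00938) against the empty vector. FOSL1 had 82.0 ± 3.14 CPM with the empty vector, 123.8 ± 10.6 in the parental libraries and 150.6 ± 24.9 with guide 2 (mean ± SD of 3). Of the 12 kinases, GTPases and adaptors of the cascade, MAP2K1, which encodes MEK1, was the 1 called. MAP2K1 was lower in parental than in empty-vector cells (-0.34, edgeR adjusted p 0.0342), a comparison where 4.37% of all genes were called. Against parental cells the lowest adjusted p among these 3 lists, over the edited lines and their mean, was that of LRIG1 in guide 1 cells (-0.81, edgeR adjusted p 0.141). Without guide 2 replicate 2, LRIG1 was lower than parental in guide 1 cells (edgeR adjusted p 0.00379) and in the edited-line average (-0.47, edgeR adjusted p 0.0157), while IL17RD (0.87, edgeR adjusted p 0.0207) and MAP2K1 (0.30, edgeR adjusted p 0.0421) were higher in both-guide than in parental cells. When 1 library at a time was left out, the guide 2 call of FOSL1 was kept in 15 of 15 fits, though not in a fit of only the compared groups (edgeR adjusted p 0.0956). The calls of SPRED2, LRIG1 and FOSL1 in edited cells were kept in 14, 13 and 13 of the 15 leave-one-out fits, and those of SPRED2 and LRIG1 in guide 1 cells in 13 and 14. The parental calls were kept in 10 fits for SPRED2 and IL17RD, 7 for FOSL1 and 6 for MAP2K1.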

How the data were processed

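RNA was extracted with RNeasy and made into libraries with the KAPA mRNA HyperPrep kit, per the labels' protocols. Reads were trimmed with Trim Galore 0.6.0 and aligned with STAR 2.7.8a to GRCh38, per the submitters' processing notes; which program counted reads, on which annotation and whether by strand, is not given in the sources used here. The authors deposited whole-number read counts per gene and library, and a second table of CPM. The deposited CPM equal the counts scaled by the library total (largest difference 4.91e-11).

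Counts were tested with edgeR 4.0.16 in R 4.3.3: filterByExpr, TMM scaling, 1 quasi-likelihood fit of 5 group means over 15 libraries (10 residual degrees of freedom), and Benjamini-Hochberg adjustment over 17457 genes. The edited-line average weights the 3 lines equally. Alternatives were DESeq2 1.42.0, voom with sample quality weights in limma 3.58.1, RLE scaling, no filter, the replicate number as a block, only the groups compared, and each library left out. On simulated counts for guide 1 against the empty vector (17183 genes), edgeR recovered 44% of 200 genes changed 2-fold. Correlations were taken on log2 CPM (prior count 2) with 100000 permutations. Positions are from GENCODE 29 on GRCh38 and promoters from RefSeq.

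The 10 genes and the other lists were chosen with earlier results of these data known. The genes named are these 10, NF1, and every gene of the other pathway lists that was called in any comparison. The labels give all groups replicate numbers 1 to 3 but do not say what a number shares. Over deviations from the group means, same-numbered libraries of guide 1 and the empty vector had correlations of 0.136 to 0.280, so the blocked value is given beside the SPRY2 call there. With the block, the guide 1 calls against the empty vector had edgeR adjusted p of 0.0201 for IER3, 0.0407 for SPRED2 and 0.0224 for LRIG1. In the other 9 pairs of groups at least 1 of 3 correlations was under 0.1.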

Additional observations from a re-analysis of the deposited data

Results flagged for a closer look

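NF1 transcript itself differed between the edited lines, which share a target and differ in the guide. NF1 was higher in guide 1 than in guide 2 cells by 0.69 log2 units (edgeR adjusted p 0.0121, SE 0.0880), with all 3 guide 1 libraries (43.6, 47.3 and 51.3 CPM) above all 3 guide 2 libraries (27.0, 31.4 and 29.8 CPM). Leaving out 1 library at a time gave an adjusted p of 0.00308 to 0.101, and 12 of 15 fits kept the call. In a fit of only the guide 1 and guide 2 libraries the NF1 difference was 0.69 with an adjusted p of 0.712, and 0 genes were called. With both guides NF1 was below its guide 1 level (-0.77, edgeR adjusted p 0.00411, SE 0.0882), at 28.9, 29.4 and 26.0 CPM, and 15 of 15 fits kept that call. For none of the 10 feedback genes was a difference between edited lines called by edgeR in the fit of all 15 libraries. At an unadjusted p under 0.05 there were 5 of 10 for guide 1 against guide 2 (15.2% of all genes) and 0 of 10 for both guides against guide 1 (13%). DESeq2 called none and voom 3 and 5 (20.2% and 46.5% of all genes). The edgeR fit of only the compared groups called DUSP7, higher with both guides than with guide 1 (0.33, adjusted p 0.0112).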

How the results depend on the processing

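Counts of feedback genes called out of 10 are given in this order: guide 1, guide 2 and both guides against the empty vector, the same 3 against parental cells, parental against empty vector, the edited-line average against empty vector, against parental and against both controls, then guide 1 against guide 2, both guides against guide 1 and both guides against guide 2. The reported counts were 2, 1, 0, 0, 0, 0, 2, 2, 0, 0, 0, 0 and 0. RLE scaling gave 2, 1, 0, 0, 0, 0, 3, 2, 0, 0, 0, 0 and 0. Without the filter they were 2, 2, 1, 0, 0, 0, 3, 2, 1, 0, 0, 0 and 0. DESeq2 gave 3, 2, 2, 1, 2, 2, 4, 2, 2, 3, 0, 0 and 0. Voom with sample quality weights, which weighted guide 2 replicate 2 at 0.0518, gave 8, 6, 5, 7, 4, 4, 7, 8, 5, 9, 3, 5 and 3. A fit of only the compared groups gave 4, 0, 5, 1, 0, 1, 4, 2, 0, 0, 1 and 0, the comparison with both controls needing all libraries. Leaving out 1 library at a time gave 1 to 4, 1 to 3, 0 to 2, 0 to 3, 0 to 2, 0 to 2, 0 to 4, 1 to 4, 0 to 3, 0 to 6, 0 to 0, 0 to 0 and 0 to 0, with the highest count of each range that varied reached without guide 2 replicate 2. Over all genes tested, the share called in these 13 comparisons was 15.2% to 52.9% with voom, 0.785% to 11.1% with DESeq2, 0.0115% to 4.63% with the block and 0% to 18.7% with only the compared groups, against 0.0401% to 6.43% as reported. The cause was not tested.

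A replicate block gave counts of feedback genes called of 1, 1, 0, 0, 0, 0, 1, 2, 0, 0, 0, 0 and 0 in the same order. The block ended the SPRY2 call in guide 1 cells (adjusted p 0.0738) and the IER3 call in parental cells (adjusted p 0.0563), and it changed no other call among the 10 genes in these comparisons. Among the other genes named it ended the parental calls of SPRED2 (0.0535), IL17RD (0.0586) and FOSL1 (0.0641). Over all groups, same-numbered libraries had a mean correlation of -0.0497 (-0.75 to 0.28), so outside guide 1 and the empty vector the numbers were not taken as pairs. What a number shares is not known.

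Some signs turned. Voom gave 0.39 for DUSP6 in guide 1 against guide 2 cells and called it (adjusted p 0.0351), where edgeR with all libraries gave -0.29 without a call and fits without 1 library ran from -0.51 to 0.21. The other signs that turned, among the differences reported here, belonged to differences called under neither setting. With voom, PHLDA1 in parental against empty vector became 0.033 and IER3 in edited against parental cells 0.042. Over the fits without 1 library, SPRY1 ran from -0.016 to 0.99 in parental against empty vector and from -0.25 to 0.79 in edited against parental cells. SPRY2 ran from -0.011 to 0.074, IER3 from -0.20 to 0.23 and DUSP7 from -0.29 to 0.15 in edited against parental cells. Against the empty vector, SPRY4 in edited cells ran from -0.076 to 0.077, SPRED3 in edited cells from -0.054 to 0.26, DUSP7 in guide 2 cells from -0.49 to 0.13 and PHLDA1 in parental cells from -0.10 to 0.0059. In guide 2 cells against the empty vector SPRY4 ran from -0.29 to 0.13 and SPRED3 from -0.61 to 0.32. In guide 2 against parental cells SPRY1 ran from -0.25 to 1.39, DUSP7 from -0.10 to 0.57 and IER3 from -0.046 to 0.40.

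SPRY2 in guide 2 cells kept its call in 15 of 15 such fits (adjusted p up to 0.0316) and lost it where only the compared groups were fitted (0.120). Depth was not limiting for most members, with 3 counts worth 0.038 to 0.065 CPM, but SPRY1 and SPRED3 rested on the fewest reads.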
